A study of Mus musculus with 15 samples.

Results

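The 10 genes described here encode the NF-kB transcription factors of B cells and the proteins that hold them in check. They are the 5 subunit genes Nfkb1, Nfkb2, Rel, Rela and Relb, the 3 IkB inhibitor genes Nfkbia, Nfkbid and Nfkbie, the ubiquitin-editing enzyme gene Tnfaip3 and the adaptor gene Traf1. They were chosen by gene symbol, with earlier results of these data known, from a deposited table of 51912 gene identifiers. All 10 were in the table, and all 10 were among the 15692 genes that passed the filter on low counts and were tested. The samples were wild-type mouse B cells with no labelled treatment, kept on a layer of 40LB cells in medium with IL-4 (100 ng/ml) for 6 days, and measured by polyA RNA-seq with 3 biological replicates in each of 5 groups. The D6 group was the unsorted culture on day 6. The other groups were taken off the feeder layer, left for 2 further days in RPMI medium with no stimulus, and sorted on day 8 as IgE iGC, IgG1 iGC, IgE PC and IgG1 PC. PC are plasma cells, and iGC is the labels' name, not spelled out there, for the other sorted cells of each isotype. The 40LB line is a fibroblast line engineered to display CD40 ligand and to secrete BAFF, so the cells of all groups had met both ligands and IL-4, and those of the sorted groups were then kept without them. The mice's strain, age and sex are not given in the sources used here. The series calls its replicates independent but does not say whether they came from separate animals or cultures, so p-values measure the spread between these samples.

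NF-kB proteins bind DNA as pairs of subunits. In the classical route, signals from the B cell receptor, CD40 or Toll-like receptors activate the IKK kinases, IkB proteins are degraded, and pairs built from the Nfkb1, Rela and Rel products enter the nucleus. In the alternative route, CD40 and the BAFF receptor stabilise the kinase NIK, the Nfkb2 precursor is trimmed, and pairs of its product with the Relb product enter the nucleus. Nfkbia, Nfkbie, Tnfaip3, Traf1, Nfkb2, Rel and Relb are known as NF-kB targets themselves, which makes the inhibitors among them a negative feedback. In B cells, CD40-driven NF-kB supports survival and proliferation, and plasma cells are known to depend on BAFF-family receptors for survival.

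Because several of these genes are known NF-kB targets, the sequences before their start sites are shown, with matches to the kappaB consensus (the site bound by NF-kB) in capitals. RefSeq start sites of the GRCm38.p6 build were matched for 8 of the 10 genes, with 13 windows of 250 bases before a start. Both strands were searched for the 10-base consensus, and overlapping matches were joined into a single run of capitals. A match lay in 8 of the 13 windows, and in at least 1 window of 6 of the 8 genes, namely Nfkb2, Rel, Nfkbia, Nfkbid, Nfkbie and Tnfaip3. The share over all 32851 windows in the same table was 7.25%, and 8.23% of 27025 genes had at least 1. The windows of Rela and Traf1 held none of these letters. A match describes the letters in this window and does not show that a factor binds there. The sequences are given on the strand of the gene, 5′ to 3′.
Nfkb2, window 1 (chr19:46304688-46304717, plus strand): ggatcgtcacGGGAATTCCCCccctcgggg
Nfkb2, window 3 (chr19:46305695-46305724, plus strand): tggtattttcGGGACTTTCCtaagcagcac
Rel (chr11:23771042-23771071, minus strand): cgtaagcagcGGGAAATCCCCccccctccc
Nfkbid, window 2 (chr7:30422215-30422244, plus strand): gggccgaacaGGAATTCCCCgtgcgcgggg
Tnfaip3, window 2 (chr10:19015411-19015440, minus strand): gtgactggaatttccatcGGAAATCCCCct
Nfkbia, the last 120 bases before the start (chr12:55492648-55492767, minus strand): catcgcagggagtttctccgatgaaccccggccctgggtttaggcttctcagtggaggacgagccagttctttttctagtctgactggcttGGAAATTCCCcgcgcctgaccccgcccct
Nfkbie, the last 120 bases before the start (chr17:45555580-45555699, plus strand): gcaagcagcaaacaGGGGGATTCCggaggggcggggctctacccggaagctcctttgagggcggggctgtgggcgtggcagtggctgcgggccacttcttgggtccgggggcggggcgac
Read in the sense of the consensus, Rel and Tnfaip3 shared the letters GGGGATTTCC, and Nfkb2 and Nfkbid shared GGGGAATTCC. Both printed stretches of Nfkb2 overlapped annotated Nfkb2 exons, as this gene has several annotated starts, and the other printed stretches overlapped no annotated exon.

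Expected counts summed to between 17.7 M in IgE iGC replicate 3 and 54.1 M in IgG1 PC replicate 2, and the lowest count of any of the 10 genes in any library was 153. IgG1 PC replicate 1 stood apart, with a correlation across genes of 0.988 with replicate 2, the lowest within any group. No pair of replicates agreed within sampling noise. The 8 B cell markers summed to 4846 to 5138 CPM (counts scaled to the library's size) in D6, 9727 to 10106 CPM in iGC and 3844 to 5477 CPM in PC. The 8 plasma cell markers summed to 1208 to 1216 CPM in D6, 665 to 1091 CPM in iGC and 10894 to 21847 CPM in PC. The 15 fibroblast markers summed to 302 to 459 CPM in D6, 83.2 to 217 CPM in IgG1 PC and 26.4 to 86.2 CPM in the other groups, with Postn at 0 in every group but IgG1 PC. The T cell markers summed to at most 19.8 CPM, with Cd3e at 0 in every group but IgG1 PC, and the myeloid markers to at most 8.58 CPM. CPM values below are scaled by TMM (trimmed mean of M values, which evens out libraries dominated by a few transcripts). Scaling by the total count instead moved the all-gene median log2 fold change: from -0.052 to -0.30 for IgE PC against IgG1 PC, from -0.078 to -0.55 for the plasma cell step in IgE cells and from 0.013 to -0.22 for that step in IgG1 cells. The log2 fold changes below are not adjusted for the all-gene median, which is given beside them where this matters. In bulk RNA, fewer cells of a type and less RNA per cell cannot be told apart.

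The 5 subunit genes differed widely in how far they moved across the 5 groups. Nfkb1 (ENSMUSG00000028163, chr3:135584655-135691547 on the minus strand; these and all later gene positions are from GENCODE vM21 on GRCm38, and all 10 genes are protein-coding) encodes the precursor of the classical small subunit. It measured 288, 272 and 274 CPM in D6, 319, 319.8 and 325 in IgE iGC, 337, 336 and 333 in IgG1 iGC, 243, 238 and 235 in IgE PC and 246, 265 and 272 in IgG1 PC. The iGC libraries were all above D6 and the IgE PC libraries all below it, but the highest and lowest group means were only 1.41-fold apart.

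Rela (ENSMUSG00000024927, chr19:5637483-5648130 on the plus strand) encodes the main activating partner of the classical pair and was the steadiest of the 10. Its values were 79.9, 78.8 and 79.0 CPM in D6, 92.2, 97.3 and 88.3 in IgE iGC, 102, 94.8 and 95.5 in IgG1 iGC, 86.9, 90.1 and 89.7 in IgE PC and 87.4, 83.1 and 89.2 in IgG1 PC. The highest mean, in IgG1 iGC, was 1.23-fold the lowest, in D6. Of the 4 neighbouring pairs in the order of group means, only IgG1 PC and D6 did not overlap. In TPM, a length-corrected measure not scaled by TMM, the lowest mean of Rela was in IgE PC, at 31.6, against 52.2 in D6.

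Rel (ENSMUSG00000020275, chr11:23736847-23770970 on the minus strand) encodes c-Rel, the activating subunit linked with proliferation and survival of activated B cells. It measured 128, 125 and 124 CPM in D6, 186, 181 and 194 in IgE iGC, 201, 187 and 186 in IgG1 iGC, 60.1, 54.5 and 50.2 in IgE PC and 49.2, 104 and 85.5 in IgG1 PC. All iGC libraries lay above all D6 libraries, which lay above all PC libraries. The isotypes overlapped at both stages, and IgG1 PC replicate 1, at 49.2 CPM, was below every IgE PC library while the other IgG1 PC libraries were above them. The span of group means was 3.48-fold.

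Nfkb2 (ENSMUSG00000025225, chr19:46304320-46312385 on the plus strand) and Relb (ENSMUSG00000002983, chr7:19606217-19629438 on the minus strand) encode the pair of the alternative route. Exons of Nfkb2 overlap exons of Psd and of a non-coding gene on the other strand. The reads are strand-specific, but whether counting used the strand is not given in the sources used here. Nfkb2 measured 292, 312 and 313 CPM in D6, 319.6, 317 and 307 in IgE iGC, 360.0, 350.1 and 350.0 in IgG1 iGC, 119, 121 and 106 in IgE PC and 179, 215 and 236 in IgG1 PC. Relb measured 38.8, 39.1 and 37.5 CPM in D6, 42.5, 42.8 and 38.5 in IgE iGC, 46.2, 46.7 and 48.9 in IgG1 iGC, 20.5, 19.0 and 19.3 in IgE PC and 31.9, 30.3 and 31.7 in IgG1 PC. Both genes had the same order of groups, from IgG1 iGC through IgE iGC and D6 to IgG1 PC and then IgE PC, and in both only IgE iGC and D6 overlapped. Their spans were 3.07-fold for Nfkb2 and 2.41-fold for Relb.

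The inhibitors had steeper ranges than Nfkb1 or Rela. Nfkbia (ENSMUSG00000021025, chr12:55489410-55492647 on the minus strand) encodes IkB-alpha, the inhibitor that is degraded and rebuilt quickly in the classical route. It measured 93.9, 99.7 and 98.8 CPM in D6, 194, 204 and 185 in IgE iGC, 219, 230.4 and 224 in IgG1 iGC, 142, 134 and 116 in IgE PC and 189, 159 and 148 in IgG1 PC. In CPM, D6 was the lowest group, and every sorted library lay above every D6 library. In TPM, IgE PC was the lowest, at 70.1 to 90.8, against 107 to 117 in D6. Nfkbie (ENSMUSG00000023947, chr17:45555703-45563169 on the plus strand) encodes IkB-epsilon, which restrains pairs that contain c-Rel or RelA. Its values were 48.5, 49.7 and 46.5 CPM in D6, 79.6, 82.1 and 77.2 in IgE iGC, 102, 104 and 99.8 in IgG1 iGC, 26.2, 27.1 and 23.7 in IgE PC and 48.0, 62.2 and 60.3 in IgG1 PC. IgG1 iGC and IgE PC were the extremes, 3.98-fold apart, and only IgG1 PC and D6 overlapped among neighbours. Nfkbid (ENSMUSG00000036931, chr7:30421732-30428746 on the plus strand) encodes a nuclear IkB protein that acts on NF-kB at its target genes. It was the least abundant of the 10 by count, at 5.29, 6.92 and 7.18 CPM in D6, 16.4, 17.2 and 19.6 in IgE iGC, 19.8, 20.9 and 22.5 in IgG1 iGC, 6.04, 5.84 and 5.33 in IgE PC and 8.96, 9.07 and 10.3 in IgG1 PC. The iGC groups stood clearly above the rest, and D6 and IgE PC overlapped.

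Tnfaip3 and Traf1 followed another order, with the highest mean in D6. Tnfaip3 (ENSMUSG00000019850, chr10:19000910-19015657 on the minus strand) encodes an enzyme that edits ubiquitin chains on adaptors and so ends signalling upstream of IKK. It measured 84.3, 103 and 101 CPM in D6, 67.0, 63.4 and 58.0 in IgE iGC, 90.3, 86.3 and 75.5 in IgG1 iGC, 37.0, 36.3 and 30.1 in IgE PC and 39.0, 51.8 and 47.9 in IgG1 PC. D6 and IgG1 iGC overlapped, and the other neighbours did not. Traf1 (ENSMUSG00000026875, chr2:34941750-34961772 on the minus strand) encodes an adaptor of TNF-family receptors, CD40 among them. It measured 109, 112 and 109 CPM in D6, 73.3, 73.4 and 76.9 in IgE iGC, 94.7, 95.2 and 96.3 in IgG1 iGC, 19.1, 18.2 and 19.6 in IgE PC and 39.9, 51.0 and 56.1 in IgG1 PC. Among the 10 genes it had the widest span, 5.81-fold, and it was the gene in which all 4 neighbouring pairs of groups were separate, from D6 down through IgG1 iGC, IgE iGC and IgG1 PC to IgE PC.

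**Figure D1:**
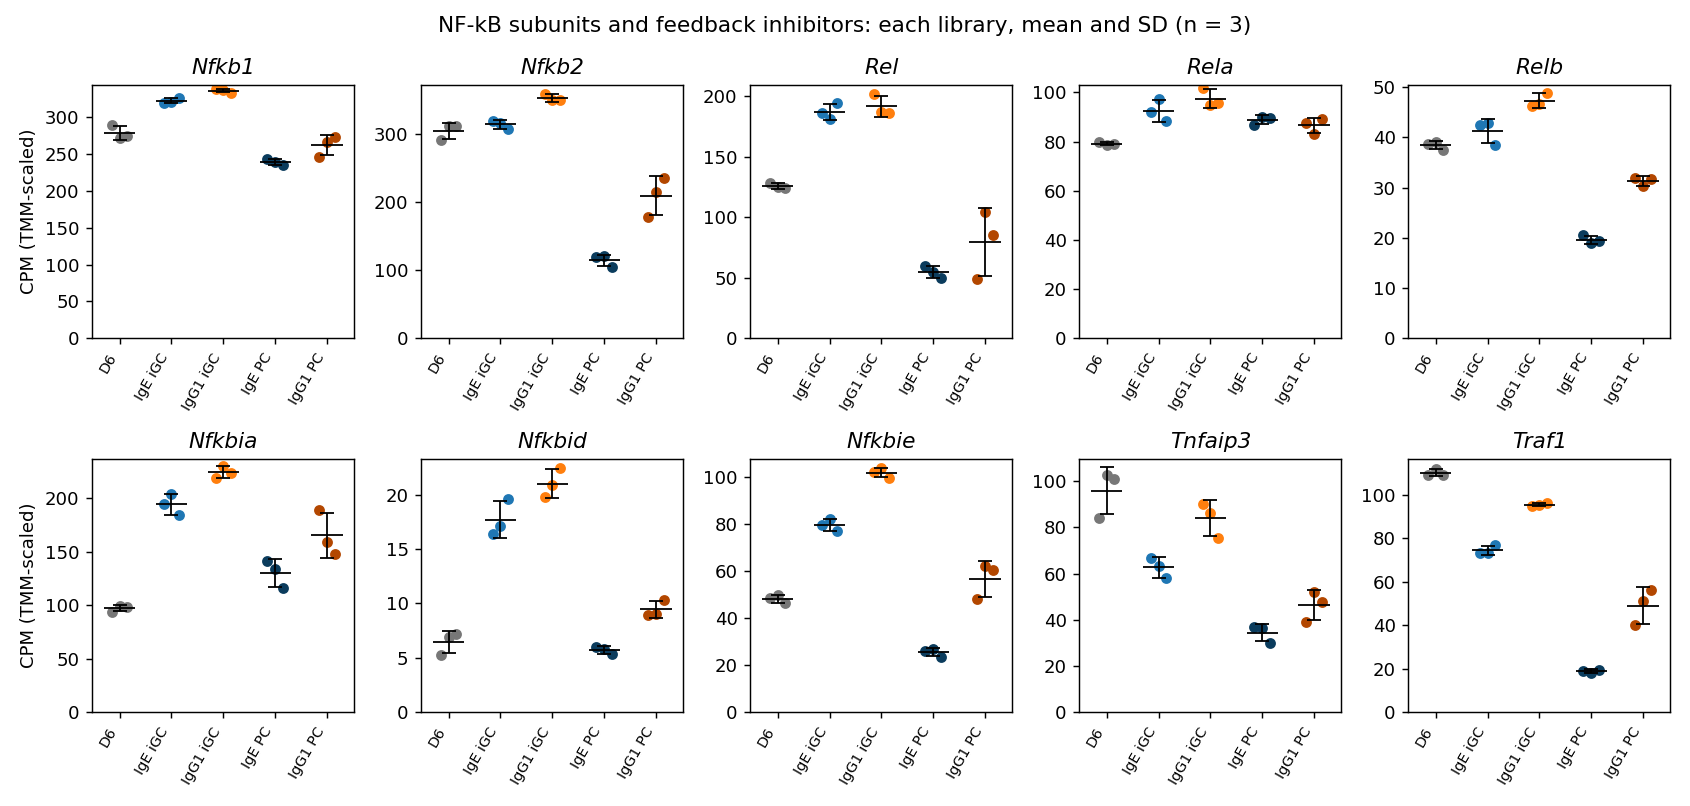
Expression of the 10 genes in CPM (TMM-scaled, vertical axes from 0, 1 panel per gene) in each of the 5 groups; points are libraries, and lines with bars are the mean and SD of 3. The highest mean is in IgG1 iGC for 8 genes and in D6 for Tnfaip3 and Traf1, the profile of Rela is flat (1.23-fold span), and the lowest mean is in IgE PC for all genes but Rela and Nfkbia.

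Nearly all of these transcripts were less abundant in PC than in iGC cells of the same isotype, sorted on the same day, a difference called the step below. In IgE cells 9 of the 10 fell and none rose (adjusted p under 0.05, edgeR's quasi-likelihood test with Benjamini-Hochberg adjustment), where 64.1% of all genes tested were called and 33.6% were lower. The median log2 fold change was -1.26 for the 10 and -0.078 for all genes tested. In IgG1 cells all 10 fell, where 59.1% of all genes were called and 29% were lower, and the medians were -0.79 and 0.013. Among the called genes, 6 of the 10 fell at least 2-fold in IgE cells and 2 of the 10 did so in IgG1 cells, beside 27.3% and 19.1% of all genes changed that far in either direction. Marker levels moved with the step. The B cell markers summed to 9727 to 10106 CPM in IgE iGC and 3844 to 4059 CPM in IgE PC, and to 9885 to 10016 CPM in IgG1 iGC and 5219 to 5477 CPM in IgG1 PC, so that they too were lower in PC and lowest in IgE PC. The plasma cell markers summed to 665 to 1091 CPM in iGC and 10894 to 21847 CPM in PC. The part of these shifts in the fall of the 10 genes was not tested.

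Traf1 had the deepest fall in IgE cells, with a log2 fold change of -1.97 (SE 0.091; adjusted p = 2.75e-11), against -0.96 (SE 0.086; adjusted p = 1.79e-07) in IgG1 cells. Rel fell by 1.76 on the log2 scale in IgE cells and by 1.26 in IgG1 cells, the steepest fall of the 10 in IgG1 cells. Without IgG1 PC replicate 1 the latter was -1.01 (SE 0.08; adjusted p = 3.09e-08), and Nfkbid fell further than Rel, at -1.12. Among inhibitors, Nfkbie had -1.64 (SE 0.083; adjusted p = 7.54e-11) in IgE cells and -0.84 (SE 0.079; adjusted p = 3.01e-07) in IgG1 cells. Nfkbid had a like fall in IgE cells, -1.62 (SE 0.12; adjusted p = 4.91e-09), and -1.15 (SE 0.11; adjusted p = 3.18e-07) in IgG1 cells. The alternative-route pair fell in both isotypes, with Nfkb2 at -1.45 (SE 0.083; adjusted p = 3.40e-10) in IgE and -0.75 (SE 0.081; adjusted p = 1.47e-06) in IgG1 cells. Relb had -1.08 (SE 0.057; adjusted p = 1.41e-10) in IgE and -0.59 (SE 0.055; adjusted p = 2.65e-07) in IgG1 cells. The shallower falls were those of Nfkbia, -0.58 and -0.44, and of Nfkb1, -0.43 and -0.36, in IgE and IgG1 cells. Tnfaip3 had nearly equal estimates in IgE and IgG1 cells, -0.87 and -0.86. Rela was not called in IgE cells, with a log2 fold change of -0.06 and a 95% interval of -0.17 to 0.052. It was called lower there by total count, at -0.53 beside an all-gene median of -0.55, and by limma on TPM, at -0.78. In IgG1 cells Rela fell slightly, -0.17 (SE 0.05; adjusted p = 0.00825), a call that was lost when only the compared groups were fitted (adjusted p = 0.0956).

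The step was compared between the isotypes through an interaction term, the IgE change minus the IgG1 change. In 5 of the 10 genes it was called, all with the larger fall in IgE cells, where 42.9% of all genes were called and 23.1% were lower. The 5 were Traf1 at -1.02 (SE 0.12; adjusted p = 1.38e-05), Nfkbie at -0.80 (SE 0.11; adjusted p = 5.62e-05), Nfkb2 at -0.70 (SE 0.12; adjusted p = 0.000202), Relb at -0.48 (SE 0.079; adjusted p = 0.000202) and Nfkbid at -0.47 (SE 0.16; adjusted p = 0.0258). They comprise 2 subunit genes, 2 IkB genes and the adaptor gene Traf1, and a tie to either NF-kB route was not tested. The Nfkbid call was lost on leaving out IgE iGC replicate 3, IgG1 iGC replicate 1 or 2, IgE PC replicate 3 or IgG1 PC replicate 3, with values from -0.46 to -0.39. Tnfaip3 had an interaction of -0.0091 with a 95% interval of -0.36 to 0.34, so a difference within that range could not be told from none. For Nfkb1 the interval was -0.22 to 0.085 and for Nfkbia -0.40 to 0.13. For Rela it was -0.046 to 0.27, and DESeq2 called a smaller fall in IgE cells, 0.15 (adjusted p = 0.0488). Rel was not called at -0.51 (SE 0.26; adjusted p = 0.129), but was at -0.75 (SE 0.11; adjusted p = 3.24e-05) without IgG1 PC replicate 1. This brought the count to 6 of the 10, where 7350 of all genes were called and 3830 were lower. Total-count scaling called 8 of the 10, all lower, beside an all-gene median of -0.30. Of all genes, 7145 were called by total count and 5603 were lower.

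**Figure D2:**
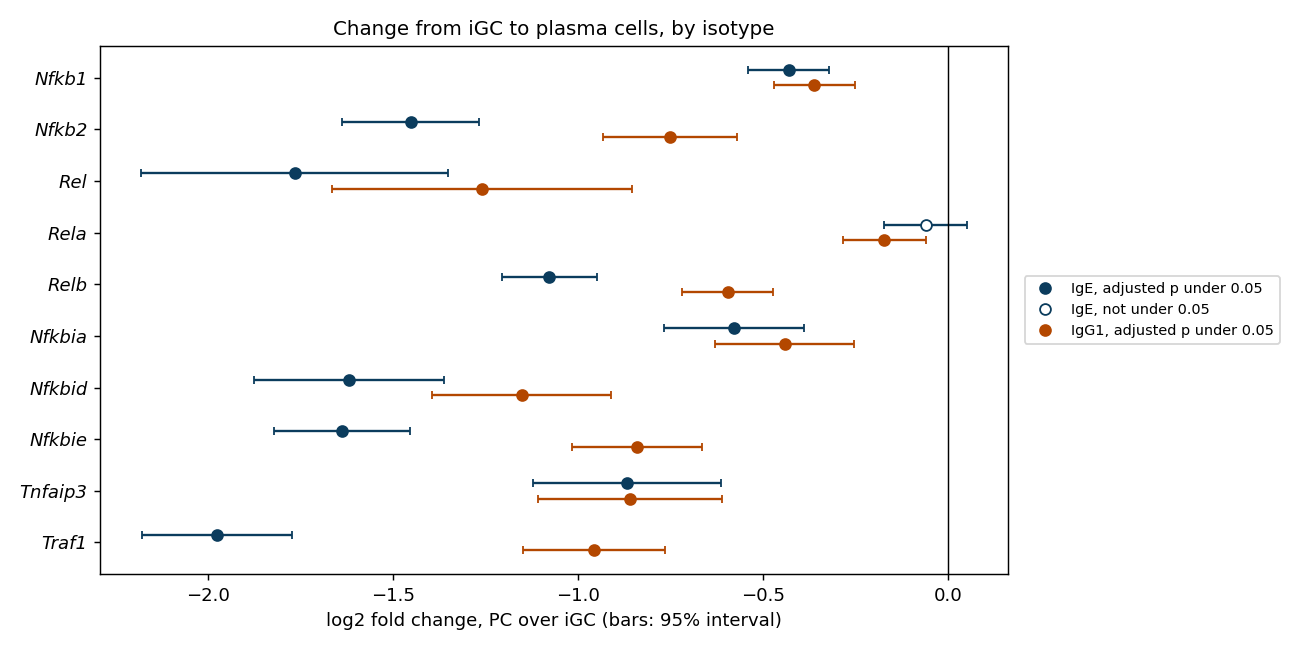
Log2 fold change of PC over iGC cells (horizontal axis) for each of the 10 genes (vertical axis) in IgE and in IgG1 cells; bars are 95% intervals, and filled points had an adjusted p under 0.05. The IgE point lies left of the IgG1 point by the most for Traf1 (-1.97 against -0.96) and Nfkbie (-1.64 against -0.84), and the points of Tnfaip3 nearly coincide (-0.87 against -0.86).

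Among plasma cells, IgE cells had less of nearly all these transcripts than IgG1 cells. In this contrast 9 of the 10 were lower in IgE PC and none was higher, where 58.1% of all genes were called and 30.7% were lower, and the median log2 fold change was -0.61 against -0.052 over all genes. In 8 of the 10 the 3 IgE PC libraries lay below all IgG1 PC libraries, and 59.2% of all genes had separate ranges in this contrast. Traf1 differed most, -1.38 (SE 0.091; adjusted p = 8.54e-09), a 2.59-fold lower level. Nfkbie followed at -1.15 (SE 0.082; adjusted p = 1.84e-08), 2.22-fold lower. Nfkb2 was at -0.87 (SE 0.082; adjusted p = 3.86e-07), Nfkbid at -0.72 (SE 0.12; adjusted p = 8.00e-05) and Relb at -0.67 (SE 0.057; adjusted p = 1.12e-07). The feedback genes Tnfaip3, at -0.43 (SE 0.11; adjusted p = 0.00477), and Nfkbia, at -0.34 (SE 0.085; adjusted p = 0.00271), differed less, and the Tnfaip3 call was lost on the TPM scale (adjusted p = 0.0727, limma). Nfkb1 passed narrowly at -0.13 (SE 0.049; adjusted p = 0.0321). Its call was lost with DESeq2 (adjusted p = 0.0733), with no filter on low counts (adjusted p = 0.126) and with only the compared groups (adjusted p = 0.163). It was also lost on leaving out any of the 6 libraries but IgG1 PC replicate 1, with values from -0.14 to -0.10. Rel, at -0.54 (SE 0.18; adjusted p = 0.0209), had overlapping ranges. Without IgG1 PC replicate 1 it was -0.79 (SE 0.079; adjusted p = 4.70e-07), and without IgG1 PC replicate 2 it was -0.29 with an adjusted p of 0.143, so its size rests on single libraries. The call was also lost without IgE PC replicate 2 or 3 or IgG1 PC replicate 3. With no filter (adjusted p = 0.0802), with only the compared groups (adjusted p = 0.0990) and by limma on TPM (adjusted p = 0.0538) Rel was not called either. Rela did not differ beyond its spread at 0.039 (SE 0.05; adjusted p = 0.526), with a 95% interval of -0.072 to 0.15. Under total-count scaling Rela was at -0.21, beside an all-gene median of -0.30, and was called lower.

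Marker levels moved with this contrast. The plasma cell markers summed to 19466 to 21847 CPM in IgE PC and to 16304, 11624 and 10894 CPM in IgG1 PC replicates 1, 2 and 3, while the B cell markers summed to 3844 to 4059 CPM in IgE PC and 5219 to 5477 CPM in IgG1 PC. The fibroblast markers summed to 26.4 to 41.8 CPM in IgE PC and 217.5, 83.2 and 217.5 CPM in IgG1 PC. The part these differences play in the isotype contrast was not tested. Without IgG1 PC replicate 1, the library that stood apart, 9 of the 10 were called lower in IgE PC. Of all genes, 9356 were then called and 4800 were lower. Rel, Tnfaip3, Traf1 and Nfkbie differed more, at -0.79, -0.53, -1.50 and -1.26. Nfkb1, Nfkb2 and Nfkbid also differed more, at -0.17, -0.97 and -0.75, and Nfkbia and Relb differed less, at -0.24 and -0.66. Leaving this library out also widens the gap in plasma cell markers between the isotypes, so the count does not bear on the part of the markers.

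With all 15 libraries fitted, fewer of the 10 genes were called between the isotypes among iGC cells than among PC. In IgE iGC against IgG1 iGC, 2 of the 10 were called, both lower in IgE cells, where 3.87% of all genes were called and 1.88% were lower. These were Nfkbie at -0.35 (SE 0.078; adjusted p = 0.0173) and Traf1 at -0.36 (SE 0.085; adjusted p = 0.0263), which also had the largest isotype differences among plasma cells. Both calls were lost when any 1 of the 6 libraries was left out, under total-count scaling and on the TPM scale. Other alternatives called more. DESeq2 called 4 of the 10, all lower, where 937 of all genes were called and 404 were lower. With only the compared groups 7 of the 10 were called, all lower, where 1503 of all genes were called and 739 were lower. A change in the isotype difference between the stages was called for the 5 genes with an interaction given above and not for the other 5, and Tnfaip3 had like estimates, -0.42 among iGC and -0.43 among PC. The plasma cell markers summed to 941 to 1091 CPM in IgE iGC and 665 to 673 CPM in IgG1 iGC, and their part in this contrast was not tested. All 10 estimates were below 0, with a median of -0.20 against 0.0077 over all genes, and in 8 of the 10 the IgE libraries lay below all IgG1 libraries, beside 27.5% of all genes with separate ranges. Tnfaip3, at -0.42 (SE 0.11; adjusted p = 0.0502), and Relb, at -0.19 (SE 0.055; adjusted p = 0.0677), came next in adjusted p. The 95% intervals were -0.17 to 0.047 for Nfkb1, -0.18 to 0.039 for Rela and -0.43 to 0.36 for Rel. These intervals use a spread shared over all 5 groups. For Rel the SD was 35.2% of the mean in IgG1 PC, but 3.45% in IgE iGC and 4.57% in IgG1 iGC. The width of its interval therefore does not describe the iGC libraries alone. The plasma cell and iGC contrasts use separate libraries, and both isotype differences for Nfkbie and Traf1 are shown side by side in the plot of isotype differences by stage.

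**Figure D3:**
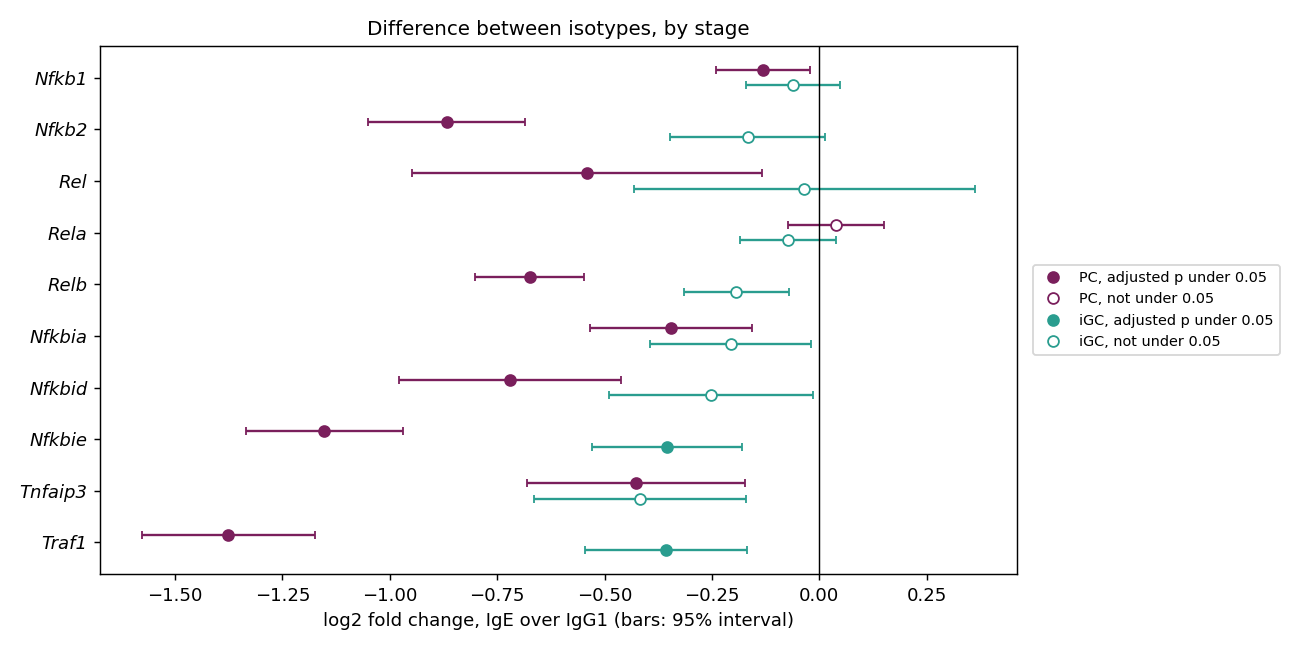
Log2 fold change of IgE over IgG1 (horizontal axis) for each of the 10 genes (vertical axis) among PC and among iGC; bars are 95% intervals, and filled points had an adjusted p under 0.05. The differences among PC reach -1.38 for Traf1 and -1.15 for Nfkbie, those among iGC reach -0.42 for Tnfaip3, and Rela lies near 0 at both stages.

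Relative to the day 6 culture, iGC cells 2 days after leaving the feeder layer had more transcript of the 3 IkB genes and less of Traf1, and IgE iGC also had less of Tnfaip3. The 4 comparisons with D6 share its 3 libraries, so their values are given side by side and not counted as separate support. In IgE iGC 6 of the 10 were higher and 2 lower, where 69.1% of all genes were called, 32.8% higher and 36.3% lower. In IgG1 iGC 8 were higher and 1 lower, where 68.4% were called, 32.4% higher and 36% lower. On the TPM scale limma called 5 and 3 of the 10. Nfkbid rose most, by 1.45 (SE 0.11; adjusted p = 1.76e-08) in IgE iGC and 1.70 (SE 0.11; adjusted p = 2.89e-09) in IgG1 iGC. Nfkbia rose by 1.00 (SE 0.085; adjusted p = 5.48e-08) and 1.20 (SE 0.086; adjusted p = 7.20e-09), and Nfkbie by 0.72 (SE 0.079; adjusted p = 8.84e-07) and 1.08 (SE 0.079; adjusted p = 1.04e-08), in the same order. Rel had the largest rise among the subunits, 0.57 and 0.61, ahead of Rela at 0.23 and 0.30 and Nfkb1 at 0.21 and 0.27. On the TPM scale limma called none of these subunit rises, with Rel at 0.41 and 0.46. Rela was then at 0.072 and 0.16, and Nfkb1 at 0.021 and 0.11. The Nfkb1 call in IgE iGC was also lost by total count. The alternative-route pair was not called in IgE iGC, with Nfkb2 at 0.043 (95% interval -0.14 to 0.22) and Relb at 0.10 (95% interval -0.018 to 0.23). Both rose slightly in IgG1 iGC, 0.21 and 0.30, calls that were lost on the TPM scale, at 0.074 and 0.17. Relb was called in IgE iGC without replicate 3 of that group, at 0.16, and Nfkb2 was not called in IgG1 iGC without D6 replicate 1 or 2 or IgG1 iGC replicate 1. Traf1 fell by 0.56 in IgE iGC and by 0.21 in IgG1 iGC, the latter call being lost on leaving out any 1 library. Tnfaip3 fell by 0.61 in IgE iGC and was not called in IgG1 iGC, at -0.19 with a 95% interval of -0.43 to 0.055.

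Relative to day 6, plasma cells of both isotypes had less Nfkb2, Rel, Relb, Tnfaip3 and Traf1 transcript and, with TMM scaling, more Nfkbia. In IgE PC 2 of the 10 were higher than in D6 and 7 lower, where 76.4% of all genes were called, 36.9% higher and 39.5% lower. In IgG1 PC 4 were higher and 5 lower, where 71.9% were called, 35.9% higher and 36% lower. Traf1 fell furthest, with log2 fold changes of -2.54 in IgE PC and -1.16 in IgG1 PC. In the same order, Tnfaip3 had -1.47 and -1.05, Nfkb2 -1.41 and -0.54, Rel -1.19 and -0.65, and Relb -0.97 and -0.30, all of them called. Nfkb1 was lower in IgE PC, at -0.22, and not called in IgG1 PC, at -0.089 with a 95% interval of -0.20 to 0.02. Nfkbia rose by 0.42 (SE 0.085; adjusted p = 0.000337) in IgE PC and 0.76 (SE 0.085; adjusted p = 9.17e-07) in IgG1 PC, but on the TPM scale limma gave -0.46 and 0.028, the latter not called (adjusted p = 0.764). Nfkbie fell by 0.91 in IgE PC and rose by 0.24 in IgG1 PC, where its range overlapped that of D6 and the call was lost without D6 replicate 3 or IgG1 PC replicate 2 or 3. Nfkbid was not called in IgE PC, at -0.17 with a 95% interval of -0.43 to 0.095 (-0.29 and called without D6 replicate 1), and rose by 0.55 in IgG1 PC, a call lost by total count, at 0.27 (adjusted p = 0.0655), and on the TPM scale, at -0.10. These directions depended on scaling. By total count, none of the 10 was higher and 9 were lower in IgE PC, and 1 was higher and 7 lower in IgG1 PC, beside all-gene medians of -0.57 and -0.27. Of all genes, 3311 were then higher and 9032 lower in IgE PC, and 3964 higher and 7370 lower in IgG1 PC. Nfkbia in IgE PC was then at -0.11, Nfkbie in IgG1 PC at -0.035 and Rela, higher by 0.17 and 0.13 with TMM, at -0.37 and -0.15. The rise of Rela in IgG1 PC was also lost without any 1 of the D6 libraries or without IgG1 PC replicate 3. D6 was unsorted and had the most fibroblast marker transcript, 302 to 459 CPM, with Cd40lg, the gene of the CD40 ligand, at 19.6 ± 5.06 CPM there and at a mean of at most 0.768 CPM in the sorted groups, while the B cell markers were at 4846 to 5138 CPM in D6 against 9727 to 10106 CPM in iGC. The parts of feeder RNA and of the B cell marker shift in the comparisons with D6 were not tested.

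The mix of subunit transcripts differed between the groups. TPM values, which correct for gene length, allow genes to be compared within a library, and each gene's share of the summed TPM of the 5 subunits was taken. These shares are descriptions, with no test. Nfkb2 took the largest share in D6, 40.3% ± 1.54 (SD, n = 3 here and below), in IgE iGC, 37.1% ± 0.273, and in IgG1 iGC, 38.6% ± 0.0900. In plasma cells Nfkb1 took the largest share, 44.8% ± 0.612 in IgE PC and 39.0% ± 1.22 in IgG1 PC, while Nfkb2 was at 23.5% ± 1.06 and 32.7% ± 2.08. Rela took 12.8% ± 0.426 in IgE iGC and 21.1% ± 0.733 in IgE PC, the highest of any group, against 12.4% ± 0.324 and 15.8% ± 1.31 in IgG1 cells. Rel was at 6.90% ± 0.121 in D6, 9.22% ± 0.492 in IgE iGC and 8.72% ± 0.274 in IgG1 iGC. It took 4.65% ± 0.354 in IgE PC and 5.12% ± 1.61 in IgG1 PC, where the SD is wide. Relb stayed a small part throughout, from 5.95% ± 0.180 in IgE PC to 7.53% ± 0.317 in IgG1 iGC. The classical genes Nfkb1 and Rela therefore made up a larger part of the subunit transcripts in IgE PC than in the other groups. The summed TPM of Nfkbia, Nfkbid and Nfkbie per summed subunit TPM was 0.360 ± 0.0103 in D6 and between 0.630 and 0.688 in the means of the 4 sorted groups.

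**Figure D4:**
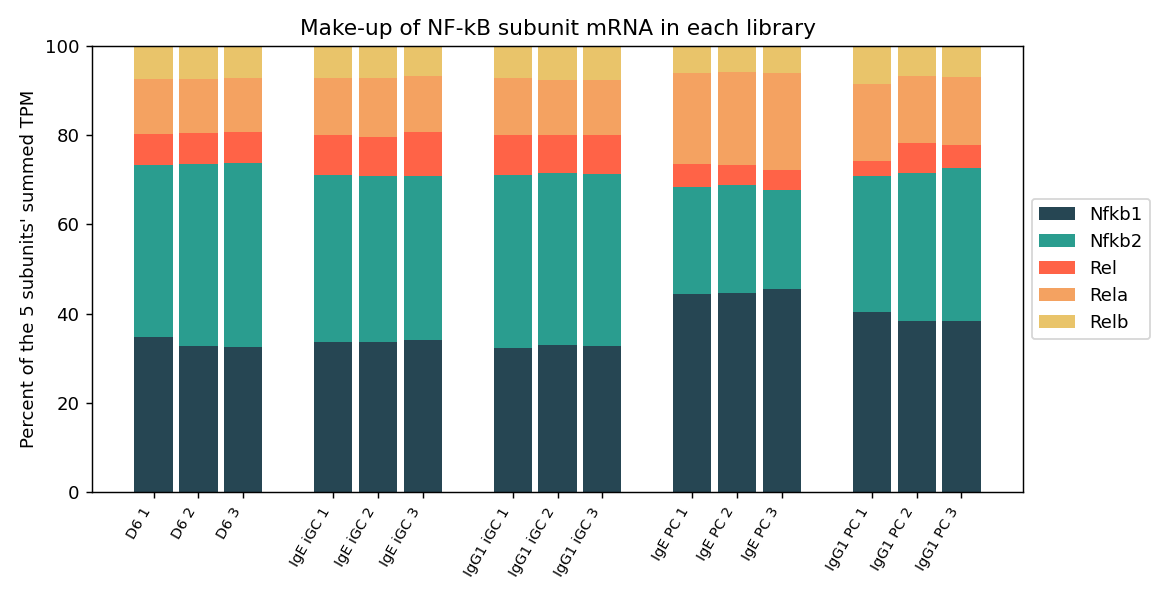
Make-up of the summed subunit TPM (vertical axis, percent) in each of the 15 libraries; every stacked bar is 1 library and its parts are the 5 NF-kB subunit genes. The mean Nfkb2 share is 23.5% ± 1.06 in IgE PC and 32.7% ± 2.08 in IgG1 PC (SD) against 37.1% to 40.3% in the other groups, and the Rela share is highest in IgE PC.

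The rest of the pathway was read from 4 lists. Of 30 known NF-kB target genes, 23 were lower in IgE PC than in IgG1 PC and 4 higher, where 58.1% of all genes were called and 30.7% were lower, with a median log2 fold change of -0.77 against -0.052 over all genes. Ccl22, a chemokine that draws T cells, had -5.26 (SE 0.24; adjusted p = 8.30e-10), Ccr7, the receptor that guides B cells to T cell zones, had -3.25 (SE 0.14; adjusted p = 2.37e-10), and Il4i1, an amino acid oxidase, had -3.05 (SE 0.10; adjusted p = 3.86e-11). Cflar, an inhibitor of death receptor signalling, at 0.93 (SE 0.087; adjusted p = 3.48e-07), and Irf4, a driver of plasma cell fate that is also on the plasma cell marker list, at 0.74 (SE 0.072; adjusted p = 5.18e-07), were higher in IgE PC. Among iGC, 8 of the 30 targets were lower in IgE cells and none higher, where 3.87% of all genes were called and 1.88% were lower, with a median of -0.24, and Ccl22 was at -1.77 (SE 0.19; adjusted p = 0.00014). In the step to PC, 17 of the 30 fell and 8 rose in IgE cells, where 64.1% of all genes were called and 33.6% were lower, and 16 fell and 11 rose in IgG1 cells, where the shares were 59.1% and 29%. Icosl, a ligand for T cell help, had -4.59 in IgE and -2.20 in IgG1 cells, and Lta, a TNF-family cytokine, -4.25 and -1.71, while Irf4 rose by 4.49 and 3.86 and the kinase gene Pim1 by 2.18 and 1.94.

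The all-gene shares just given, with TMM scaling, apply to the other 3 lists as well. By total count, 2272 of all genes were higher and 7265 lower in IgE PC than in IgG1 PC. In the step to PC by total count, 2651 rose and 8743 fell in IgE cells, and 3226 rose and 6840 fell in IgG1 cells. Of 21 receptors and adaptors, 9 were higher and 8 lower in IgE PC than in IgG1 PC (7 and 11 by total count), beside 58.1% of all genes called. Cd40, the receptor for the ligand displayed by the feeder cells, measured 74.7 ± 3.57 CPM in IgE iGC, 84.7 ± 4.34 in IgG1 iGC, 12.0 ± 0.965 in IgE PC and 32.6 ± 5.18 in IgG1 PC (mean ± SD, n = 3), and differed among PC by -1.44 (SE 0.10; adjusted p = 1.22e-08). It fell by 2.63 on the log2 scale in the IgE step and by 1.37 in the IgG1 step. Tnfrsf13c, the BAFF receptor, was lower in IgE PC at -0.60 (SE 0.052; adjusted p = 1.35e-07), and Tlr9, a sensor of DNA, at -2.22 (SE 0.21; adjusted p = 9.83e-07). Tlr4, a sensor of lipopolysaccharide, at 2.21 (SE 0.13; adjusted p = 4.10e-09), Tlr7, a sensor of RNA, at 1.37 (SE 0.13; adjusted p = 4.74e-07), and the adaptor gene Traf6, at 0.70 (SE 0.065; adjusted p = 3.24e-07), were higher in IgE PC. Also higher were the BAFF-family receptor genes Tnfrsf13b, at 0.66 (adjusted p = 3.48e-07), and Tnfrsf17, at 1.07 (adjusted p = 0.000453). These 2 are named after their values were seen, and Tnfrsf17 is also on the plasma cell marker list. The list therefore held changes of both directions, with a median of -0.013. In the step to PC, 8 rose and 10 fell in IgE cells (5 and 12 by total count), and 6 rose and 9 fell in IgG1 cells (5 and 13 by total count).

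Of 13 genes of the IKK kinases and their regulators, 7 were higher and 5 lower in IgE PC than in IgG1 PC (3 and 5 by total count), beside 58.1% of all genes called. Chuk, which encodes IKK-alpha, was higher at 0.96 (SE 0.077; adjusted p = 6.59e-08), as were Tab3, 1.16 (SE 0.16; adjusted p = 2.70e-05), and Tab2, 0.58 (SE 0.066; adjusted p = 2.78e-06), which link ubiquitin chains to the kinase TAK1. Map3k14, which encodes NIK, the kinase of the alternative route, was lower at -0.66 (SE 0.079; adjusted p = 4.22e-06), and Malt1, a protease of antigen receptor signalling, at -0.43 (SE 0.091; adjusted p = 0.000966). In the step to PC, 5 rose and 5 fell in IgE cells (1 and 9 by total count), and none rose and 8 fell in IgG1 cells (none and 12 by total count). Prkcb, a protein kinase C of B cell receptor signalling, fell by 1.76 in IgE cells and by 1.31 in IgG1 cells. Of 18 other IkB family members and ubiquitin editors, 6 were higher and 5 lower in IgE PC (4 and 10 by total count), a share near the 58.1% of all genes called. Among them the ubiquitin ligase gene Itch was higher at 0.90 (SE 0.08; adjusted p = 1.96e-07) and the deubiquitinase gene Cyld at 0.73 (SE 0.065; adjusted p = 2.14e-07), while the deubiquitinase gene Otulin was lower at -0.59 (SE 0.046; adjusted p = 4.81e-08) and Bcl3, a nuclear IkB protein, at -0.33 (SE 0.086; adjusted p = 0.00399). In the step to PC, 6 rose and 8 fell in IgE cells (2 and 13 by total count), and 3 rose and 10 fell in IgG1 cells (none and 13 by total count). Among iGC 1 gene of this list and 1 receptor were called. Tank, which encodes a binding partner of TRAF proteins, was lower in IgE iGC at -0.42 (SE 0.09; adjusted p = 0.0146), a call lost on leaving out each of 3 of the 6 libraries. Tnfrsf17, which encodes the BAFF-family receptor BCMA and is named after its values were seen, was called higher at very low levels, 0.474 ± 0.0423 CPM in IgE iGC and 0.0624 ± 0.0315 CPM in IgG1 iGC.

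**Figure D5:**
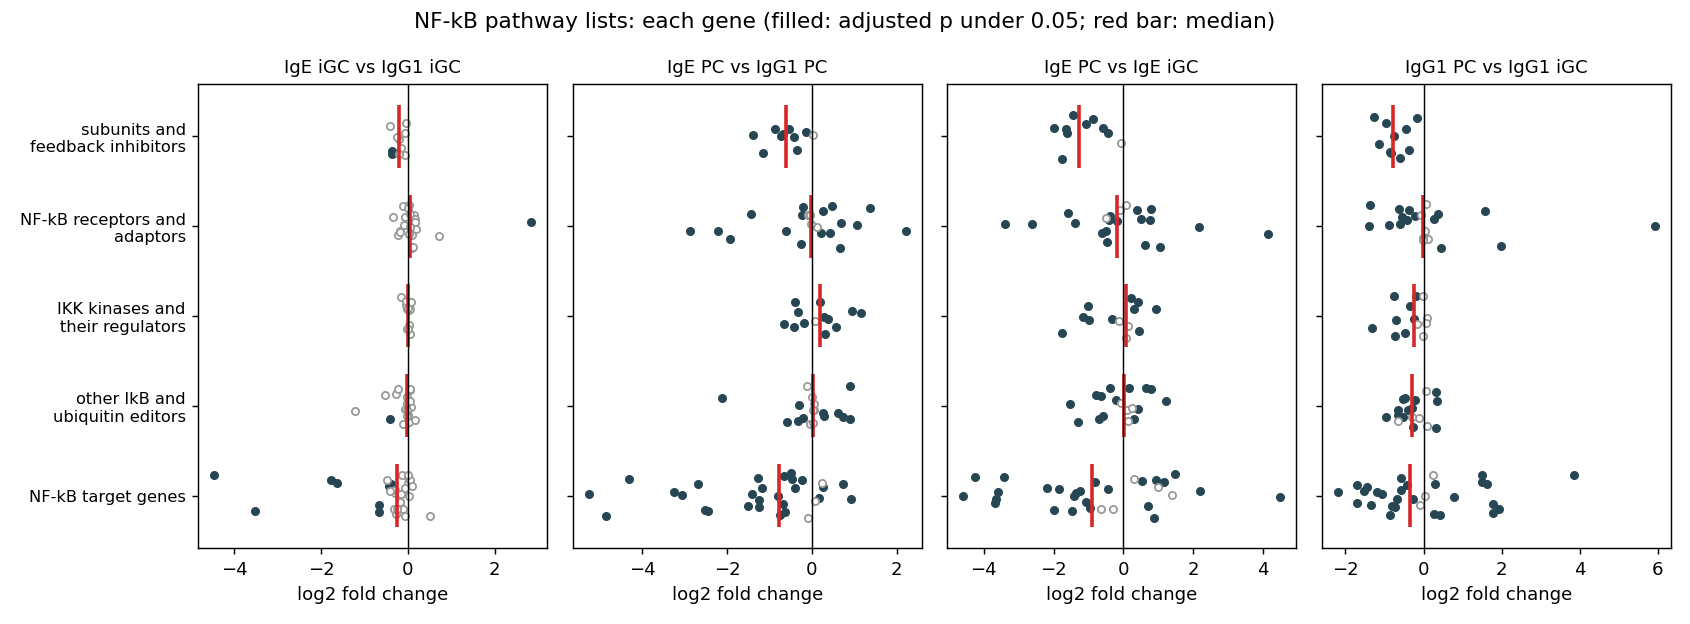
Log2 fold change (horizontal axes) of each gene of the 10 described here and of the 4 wider lists (rows) in 4 contrasts (panels); filled points had an adjusted p under 0.05, and red bars are list medians. For IgE PC against IgG1 PC the targets lie mostly below 0 (23 of 30 called lower), while the other 3 wider lists spread to both sides.

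The profile of each gene over the 15 libraries was compared with every other gene of at least 10 CPM on average, by the root-mean-square difference of log2 CPM after centring (smaller is more alike). This measure is a description, and the 15 points share groups and libraries. The nearest genes to Rel were Prkcb (0.098) and Map4k5 (0.138), beside an SD of Rel's own log2 CPM of 0.74. Those nearest to Nfkbia were Bcl3 (0.099) and Mppe1 (0.112), beside an SD of 0.44. Prkcb and Bcl3, each the nearest over all genes compared, are on the pathway lists above. Nfkb1 was nearest to Wasf2 (0.047) and Smarcal1 (0.060), Rela to Unk (0.048) and Evi5l (0.052), Nfkb2 to Mbp (0.074) and Vav2 (0.088), and Relb to Fkbp3 (0.091) and Ifngr2 (0.092). Nfkbie was nearest to Cxcr5 (0.139) and Grap (0.144), Nfkbid to Dhx58 (0.121) and Snx8 (0.122), Tnfaip3 to Ankrd33b (0.118) and Mettl2 (0.125), and Traf1 to Ptk2 (0.141) and Galnt10 (0.162). Among the 10 genes themselves, the closest pairs were Nfkb1 with Rela at 0.16 and Nfkb2 with Relb at 0.19, and the most distant was Nfkbia with Traf1 at 0.96. Nfkb1 and Rela are also the flattest of the 10, with SDs of their own log2 CPM of 0.19 and 0.11, which alone keeps this measure small, while Nfkb2 and Relb had SDs of 0.60 and 0.44.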

How the data were processed

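The authors deposited 1 table with an RSEM expected count and a TPM value per gene and library, per the file headers. Cutadapt 1.9.1, STAR 2.5.2a, RSEM 1.3.0, DESeq2 1.12.3 and the GRCm38 build are named, without roles, in the submitters' processing notes, and libraries were KAPA mRNA HyperPrep, strand-specific, single-end, 76 bp. Symbols matched 51633 of 51912 identifiers. Expected counts (91.8% whole) were rounded, filtered with filterByExpr (minimum count 10, minimum total 15), scaled by TMM and fitted with 1 mean per group over 15 libraries in edgeR 4.0.16 (R 4.3.3; glmQLFit, robust; glmQLFTest; 10 residual degrees of freedom), with 9 contrasts. Genes with a Benjamini-Hochberg adjusted p under 0.05 over 15692 genes were called. Standard errors are the log2 fold change over the square root of F and approximate, and 95% intervals use them with 10 degrees of freedom. Scripts were tested on simulated data. The 10 genes and the lists were chosen with earlier results of these data known. From each list, up to 3 called rises and 3 falls of largest log2 fold change with a mean of at least 10 CPM in a compared group could be named, and for likeness the 2 nearest genes. Alternatives were DESeq2 1.42.0, total-count scaling, no filter, only the groups compared, the replicate number as a block, limma 3.58.1 on log2(TPM + 1) and leaving out each replicate. Those for the lists were added after seeing the data. An item of the pathway lists is not reported here and was left out of their counts.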

Additional observations from a re-analysis of the deposited data

Results flagged for a closer look

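For 5 of the 10 genes the IgE and IgG1 cells differed in the size of the fall into the plasma cell stage, by the interaction test. The interaction, the IgE log2 fold change minus the IgG1 one, was -0.70 for Nfkb2, -0.48 for Relb, -0.47 for Nfkbid, -0.80 for Nfkbie and -1.02 for Traf1. Of all genes tested, 42.9% passed the same test. The Nfkbid call was lost on the TPM scale and on leaving out each of 5 libraries, and the other 4 kept theirs under every alternative run.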

How the results depend on the processing

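Of 90 gene and contrast pairs, 83 kept their direction and call with DESeq2, 72 with total-count scaling, 85 with no filter, 78 with only the compared groups, 63 with limma on log2(TPM + 1) and 90 with the replicate block, as did 549 of 600 fits that left out 1 library. The replicate numbers were not taken to pair the libraries, as no label ties them to a shared animal or day. The deviations of same-numbered libraries correlated at a mean of -0.00681 over 30 pairs of libraries from different groups (-0.238 to 0.130, 5 over 0.1). With the replicate block the genes called stayed at 9, 2, 9, 10 and 5 in the 5 contrasts among sorted groups. The iGC isotype contrast moved most. Its calls among the 10 genes were 4 with DESeq2, 7 with only the compared groups, and 0 by total count, by limma on TPM and on leaving out any library (0 to 0), and its calls over all genes, 607, were 937 with DESeq2, 1503 with only the compared groups and 323 to 403 on leaving out a library. In the interaction, 8 of the 10 were called by total count and 6 with DESeq2 (1 higher and 5 lower). Leaving out a library gave 4 to 6. Calls over all genes, 6733, were 7145 by total count, 5882 to 7418 on leaving out a library and 4354 by limma on TPM. On TPM, 5 and 3 of the 10 were called in IgE and IgG1 iGC against D6, where 8 and 9 were called on counts. In IgG1 PC against D6, DESeq2 called 3 higher and 6 lower.

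Some directions turned. Rela turned in IgE PC against IgG1 PC (-0.21 by total count, -0.11 on TPM), in the interaction (-0.13 and -0.018), in IgE PC against D6 (-0.37 and -0.70) and in IgG1 PC against D6 (-0.15 and -0.60). Nfkb2 turned in IgE iGC against D6 (-0.021 and -0.11), Nfkbia in IgE PC against D6 (-0.11 and -0.46) and Nfkbie in IgG1 PC against D6 (-0.035 and -0.49). On TPM alone Relb turned in IgE iGC against D6 (-0.047) and Nfkbid in IgG1 PC against D6 (-0.10), and with DESeq2 the Tnfaip3 interaction was 0.031. Leaving out 1 library put the Tnfaip3 interaction between -0.11 and 0.10 and Rel in IgE iGC against IgG1 iGC between -0.060 and 0.0032. The causes were not tested. Counting error is largest for Nfkbid, whose lowest count was 153. In IgE PC against IgG1 PC, genes of the IKK list called numbered 12, and 8 to 11 under the alternatives; those of the same list in the IgG1 step numbered 8, and 6 to 13. Among iGC the target genes called numbered 8, and 4 to 15, and the other lists had 0 to 5.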
